A study of Mus musculus with 6 samples.

Results

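The endoplasmic reticulum (ER) folds, checks and exports the proteins that a cell secretes or places in its membranes. This account describes 34 genes of that machinery, taken by name from a count table of 33157 rows: 8 luminal chaperones, 6 disulfide and proline isomerases, 3 J-domain co-chaperones, 3 sensors and factors of the unfolded protein response (UPR), 7 translocation genes and 7 genes of ER-associated degradation (ERAD). All 34 were found in the table and all 34 passed the filter on low counts. RNA came from group 3 innate lymphoid cells (ILC3s), cytokine-producing lymphocytes of mucosal tissue, sorted from wild-type mouse small intestine. Per the series' design text, the sort took lineage-negative CD45+ cells that were CD90.2+, CD127+ and KLRG1-, in the CD45dim-CD90.2hi gate. The control group of 3 libraries was held for 4 h with recombinant mouse interferon-γ (IFN-γ) at 20 ng/mL, and the second group of 3 libraries received the same IFN-γ together with insulin-like growth factor 1 (IGF-1) at 200 ng/mL. Both groups were therefore exposed to IFN-γ, and no culture without it was analysed here. The labels give no age or sex and do not say if replicates are separate animals or cultures. The p-values therefore reflect the scatter of these 6 libraries only, and part of it may be technical.

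As background, proteins enter the ER through the Sec61 channel, are bound there by the Hsp70-type chaperone BiP and by the sugar-binding chaperones calnexin and calreticulin, and receive their disulfide bonds from protein disulfide isomerases. When unfolded protein accumulates, the sensors IRE1, ATF6 and PERK start the UPR: IRE1 splices the mRNA of Xbp1, ATF6 is cut to release a transcription factor, and PERK slows translation and favours ATF4. Chaperone and ERAD genes are targets of XBP1 and ATF6, and proteins that cannot be folded leave through ERAD to the proteasome. IGF-1 signals through PI3K, AKT and mTOR, which raise protein and lipid synthesis in many cell types. Gene counts do not tell spliced from unspliced Xbp1, and they do not measure cleavage or phosphorylation of the sensors.

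Many UPR targets carry an ER stress response element (ERSE) in the promoter, where a CCAAT box bound by NF-Y lies 9 bases from the CCACG bound by ATF6 or XBP1. Since the list holds known UPR targets, the promoters of the 34 genes were searched for this element. The windows were from RefSeq, build GRCm38.p6, from 250 bases before to 50 after each start. The letters CCAAT, any 9 bases and CCACG, on either strand, were present in 8 of the 28 members that have such a window (28.6%). They were present in 37 of all 27025 gene symbols (0.137%). The 34 genes were chosen by name and include known UPR targets, so these shares are a description and not a test. The matching stretches, upstream of the start and written 5′ to 3′ on the strand that reads CCAAT, are shown because this is the element through which ATF6 and XBP1 are known to act on such genes. Capitals mark the CCAAT and CCACG blocks.
Hspa5: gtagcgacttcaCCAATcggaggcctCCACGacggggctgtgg
Hsp90b1 distal: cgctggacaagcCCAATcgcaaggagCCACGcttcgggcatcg
Hsp90b1 proximal: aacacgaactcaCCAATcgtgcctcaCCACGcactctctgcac
Calr: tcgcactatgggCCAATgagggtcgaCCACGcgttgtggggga
Canx: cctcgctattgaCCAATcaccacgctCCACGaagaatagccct
Creld2: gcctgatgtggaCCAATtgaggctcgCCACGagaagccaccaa
Pdia6: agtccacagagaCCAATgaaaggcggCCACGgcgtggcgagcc
Dnajc3: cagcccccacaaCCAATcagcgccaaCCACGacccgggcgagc
Syvn1: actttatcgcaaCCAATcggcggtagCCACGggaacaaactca

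These windows lie at chr2:34772013-34772055 (+ strand) for Hspa5, chr10:86705626-86705668 (-) and chr10:86705521-86705563 (+) for Hsp90b1, chr8:84847063-84847105 (+) for Calr and chr11:50325788-50325830 (-) for Canx. Creld2's is at chr15:88819508-88819550 (-), Pdia6's at chr12:17266479-17266521 (+), Dnajc3's at chr14:118937815-118937857 (+) and Syvn1's at chr19:6046520-6046562 (+). In Hspa5, which encodes BiP, the element spans 65 to 47 bases before the start, and in Syvn1, the ERAD ubiquitin ligase, 44 to 26 bases before it. A second form, ERSE-II, with the letters ATTGG, any base and CCACG on either strand, was found in Herpud1 and Dnajb11 (2 of 28 members, 7.14%, and 0.0444% of all symbols). It shares the CCACG block with the first form. In the Herpud1 window (chr8:94386365-94386399, + strand) it ends 42 bases before the start.
Herpud1: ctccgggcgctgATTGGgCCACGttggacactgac

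The XBP1-type element TGACGTGG was found in Txndc5 alone among the 28 (3.57%, against 0.714% of all symbols), and TGATGCAA, a letter string of the C/EBP-ATF elements that ATF4 binds, in Herpud1 alone (3.57%, against 1.03%). A match describes letters in a window, not binding. Atf6, Derl1, Hyou1, Manf, Sec61a1 and Ssr2 had no entry in the promoter table.

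The comparison with IGF-1 showed small positive differences across most of the 34 genes and no gene past the test. Values below are CPM, the counts scaled to a common library total, after TMM normalisation (library sizes adjusted so that most genes stay level). Only sums over lists of marker or RNA quality genes use raw library totals, without TMM. Gene values are given for replicates 1, 2 and 3 of each group. Fold changes compare IGF-1 libraries with controls on the log2 scale, with the standard error (SE). With edgeR's quasi-likelihood test and Benjamini-Hochberg adjustment over 13483 genes, 0 of the 34 passed an adjusted p of 0.05 in either direction, where 0.230% of all genes tested were called higher and 0.267% lower. DESeq2 called 2 members higher (Pdia3 and Manf), where it called 1.84% of all genes with an adjusted p, and DESeq2 with the replicate number as a block called 1 (Pdia3), against 1.12%. With that block edgeR called 0 (0.0223% of all genes), and limma-voom called 0 (0.267%). At an unadjusted p under 0.05, 11 of the 34 were higher (32.4%) and 0 lower, against 5.58% and 6.24% of all genes. In 14 members (41.2%) all 3 IGF-1 libraries stood above all 3 controls and in 0 all stood below, against 8.81% and 9.17% of all genes. The log2 fold change was above 0 in 32 of 34 members, against 48.7% of all genes. All members but Hyou1 averaged at least 10 CPM, and among the 8565 genes of that abundance the 3 upward shares were 7.43%, 10.6% and 50.2%.

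The median of the 34 log2 fold changes was 0.24, a difference of 17.8%, beside -0.01 for all genes tested, and the values ran from -0.17 for Syvn1 to 0.61 for Sdf2l1. The number of members at an unadjusted p under 0.05 depended on single libraries. It was 5 without control replicate 2, control replicate 3, IGF-1 replicate 1 or IGF-1 replicate 2 (14.7% of the members, where 5.28%, 3.65%, 3.88% and 3.63% of all genes met the rule), 13 without IGF-1 replicate 3 (38.2%, against 6.35%) and 16 without control replicate 1 (47.1%, against 7.93%). The count of members with all IGF-1 libraries above all controls was 24 without control replicate 1, against 16.6% of all genes in those 5 libraries. It was 15, 14, 16, 14 and 19 without control replicates 2 and 3 and IGF-1 replicates 1, 2 and 3, against 13.8%, 11.7%, 12.8%, 12.6% and 16.1% of all genes. Without IGF-1 replicate 3, 1 member, Ern1, lay below all controls, by a very small margin (60.458 CPM in IGF-1 replicate 1, 60.474 CPM in control replicate 1). The share of all genes below the controls in those 5 libraries was not computed. The median stayed between 0.18 and 0.31 in these 6 fits.

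**Figure D1:**
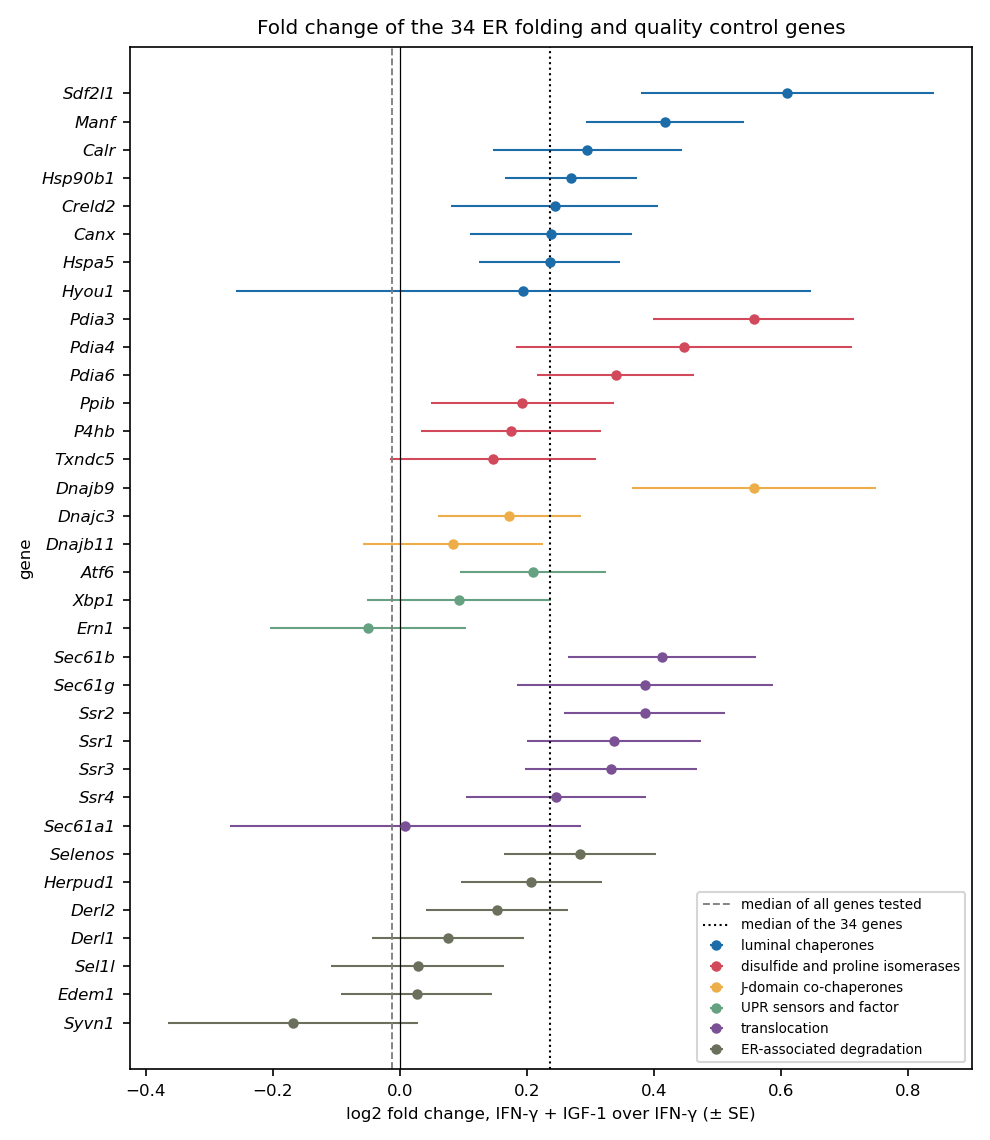
Log2 fold change with its SE for each of the 34 genes, coloured by role; positive values are higher with IGF-1. The dashed line is the median of all genes tested (-0.01), the dotted line the median of the 34 (0.24), and Syvn1 and Ern1 are the genes to the left of 0.

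Among the luminal chaperones, all 8 log2 fold changes were positive (median 0.26, and 0.41 without control replicate 1), and in Hspa5, Hsp90b1, Canx and Manf the groups did not overlap. Hspa5 (BiP), the Hsp70 of the ER and the repressor of its stress sensors, read 737, 626 and 719.6 CPM in the controls and 846, 787 and 818 CPM with IGF-1. The lowest IGF-1 library stood above the highest control, with a log2 fold change of 0.24 (SE 0.11, adjusted p = 0.442). Hsp90b1 (GRP94), an Hsp90-type chaperone that folds integrins and Toll-like receptors, stood at 436, 461 and 461 CPM in the controls and at 556, 542 and 537 CPM with IGF-1. The 3 libraries of each group lay close together and the difference was 0.27 (SE 0.10, adjusted p = 0.330).

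Manf encodes a small BiP partner that is also secreted, and it had the second smallest p among the 34 genes. Its levels were 240.4, 254 and 272 CPM in the controls and 356, 368 and 299 CPM with IGF-1. All IGF-1 libraries were above all controls (0.42, SE 0.12, adjusted p = 0.201), and DESeq2 gave an adjusted p of 0.0369. Sdf2l1, a component of the BiP and J-protein complex, had the largest fold change of the 34. Its controls were at 44.5, 29.6 and 33.3 CPM and its IGF-1 libraries at 37.6, 69.0 and 57.3 CPM. IGF-1 replicate 1 lay within the control range, and the log2 fold change of 0.61 (SE 0.23, adjusted p = 0.319) varied from 0.40 to 0.82 when single libraries were left out. With no filter on low counts its adjusted p was 0.0318.

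The lectin chaperones Canx (calnexin, membrane-bound) and Calr (calreticulin, soluble) hold glycoproteins until they are folded. Canx read 749.7, 748 and 721 CPM in the controls and 1016, 848 and 752 CPM with IGF-1, so that IGF-1 replicate 3 stood just above the controls and replicate 1 far above them (0.24, SE 0.13, adjusted p = 0.509). The value was 0.11 without IGF-1 replicate 1. Calr was at 295, 198 and 239 CPM and at 309.99, 299 and 289.5 CPM, and control replicate 1 reached into the IGF-1 range (0.29, SE 0.15). Its value was 0.46 without control replicate 1 and 0.16 without control replicate 2. Creld2, a secreted UPR target, had 88.4 ± 19.4 and 105 ± 10.0 CPM (SD, n = 3 per group; 0.24, SE 0.16), and its value was 0.44 without control replicate 1 and 0.14 without control replicate 3. Hyou1 (GRP170), the nucleotide exchange factor of BiP, was scarce in these cells at 6.74 ± 2.61 and 7.72 ± 3.92 CPM, and its value of 0.19 (SE 0.45) changed sign when control replicate 3, IGF-1 replicate 2 or IGF-1 replicate 3 was left out.

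**Figure D2:**
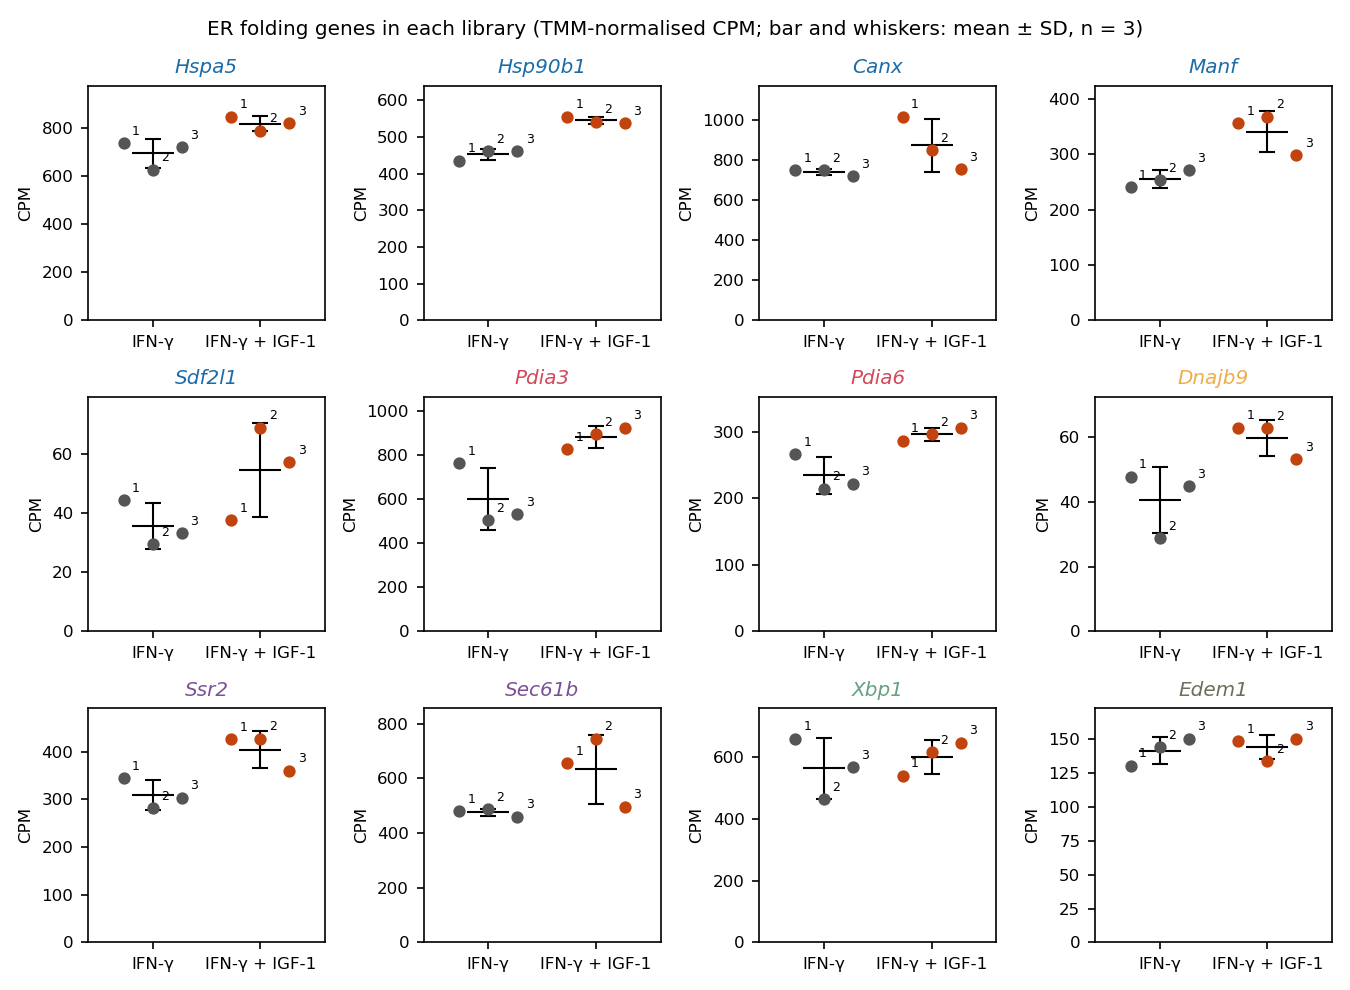
TMM-normalised CPM of 12 of the 34 genes in each library, with the replicate number beside each point and the mean ± SD (n = 3) as bar and whiskers; every axis starts at 0. Hsp90b1 and Manf show separate groups, whereas for Pdia3 control replicate 1 (763 CPM) lies close to the IGF-1 libraries, and Xbp1 and Edem1 overlap.

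The protein disulfide isomerases form and reshuffle disulfide bonds in the lumen. All 6 genes of the isomerase group had positive values (median 0.27), and Pdia3 had the smallest p of all 34 members. Pdia3 (ERp57) works with calnexin and calreticulin and is also part of the complex that loads peptides on MHC class I. It stood at 763, 504 and 533 CPM in the controls and at 826, 896 and 924 CPM with IGF-1. Every IGF-1 library exceeded every control, the lowest (826 CPM) standing close to control replicate 1 (763 CPM). The fitted log2 fold change between groups was 0.56 (SE 0.16), a difference of 47.0%, with an adjusted p of 0.183. DESeq2 called it with an adjusted p of 0.0157, and edgeR did so with no filter on low counts (0.0117). The edgeR call also appeared without control replicate 1, with a log2 fold change of 0.77 and an adjusted p of 0.0327, while without the other libraries the adjusted p ran from 0.261 to 0.575.

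Pdia6, which acts on disulfides of BiP clients and of IRE1, was at 267, 214 and 222 CPM in the controls and at 287, 297 and 306 CPM with IGF-1. The groups did not overlap (0.34, SE 0.12, adjusted p = 0.305). Pdia4 (ERp72) gave 105, 47.4 and 52.3 CPM in the controls and 80.9, 102 and 96.8 CPM with IGF-1. Control replicate 1 was the highest of all 6 libraries, and the log2 fold change of 0.45 (SE 0.26, adjusted p = 0.564) was 0.90 without that library, with an adjusted p of 0.0465, and 0.24 without control replicate 2. P4hb, the classical disulfide isomerase, showed the same library as its highest, at 529, 389 and 379.9 CPM against 503, 477 and 486 CPM (0.18, SE 0.14). Its value was 0.35 without control replicate 1 and 0.09 without control replicate 3. Txndc5 (ERp46; 0.15, SE 0.16) and the proline isomerase Ppib (cyclophilin B; 0.19, SE 0.14) overlapped between groups, and their values ran from 0.0080 to 0.24 and from 0.10 to 0.32 when single libraries were left out.

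J-domain proteins stimulate the ATPase of BiP and decide which client it meets. Dnajb9 (ERdj4), a target of XBP1 that brings BiP to IRE1 and to ERAD clients, read 47.7, 28.8 and 44.8 CPM in the controls and 62.8, 62.6 and 53.1 CPM with IGF-1. The groups did not overlap, and the log2 fold change was 0.56 (SE 0.19, adjusted p = 0.276), a difference of 47.1%. Without control replicate 2, the lowest library, it was 0.36. Dnajc3 (p58IPK), also known as an inhibitor of PERK, read 307, 291 and 264 CPM in the controls and 323, 327 and 322 CPM with IGF-1. Its groups were separate by a small margin (0.17, SE 0.11, adjusted p = 0.607). Dnajb11 (ERdj3), which holds nascent chains for BiP, had 155 ± 23.4 and 164 ± 16.0 CPM (0.08, SE 0.14).

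The sensors and the transcription factor of the UPR had a median of 0.09, which ran from -0.03 without control replicate 2 to 0.18 without control replicate 1. Atf6, the sensor that is itself a transcription factor, read 92.2, 102 and 94.0 CPM in the controls and 106, 114 and 112 CPM with IGF-1. Its groups did not overlap, with a log2 fold change of 0.21 (SE 0.11, adjusted p = 0.528). Ern1, which encodes IRE1, was at 60.5, 61.0 and 69.4 CPM and at 60.5, 51.2 and 72.7 CPM, with IGF-1 libraries both above and below every control (-0.05, SE 0.15). Total Xbp1 mRNA stood at 659.9, 463 and 568 CPM and at 539, 617 and 647 CPM. Those groups overlapped throughout, and the value of 0.09 (SE 0.14, adjusted p = 0.865) became -0.03 without control replicate 2.

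Translocation genes had a median of 0.34, above the other roles, and all 7 were positive, Sec61a1 at only 0.01. Without IGF-1 replicate 2 the median was 0.28, as for the isomerases and luminal chaperones (0.28 each). The translocon-associated protein (TRAP) complex, made of Ssr1 to Ssr4, sits beside the Sec61 channel and helps the entry of some signal sequences. Ssr2 was at 344, 282 and 304 CPM in the controls and at 426, 428 and 360.2 CPM with IGF-1. No control reached the lowest IGF-1 library (0.38, SE 0.13, adjusted p = 0.252). Ssr1 read 278, 223 and 228 CPM in the controls against 325, 329 and 267 CPM, and Ssr3 read 374, 292 and 302 CPM against 440.02, 416 and 362 CPM. In both, IGF-1 replicate 3 fell below control replicate 1, and the log2 fold changes were 0.34 (SE 0.14, adjusted p = 0.362) and 0.33 (SE 0.14, adjusted p = 0.363). Ssr4 stood at 399 ± 40.4 and 473 ± 71.7 CPM (0.25, SE 0.14). The 4 TRAP subunits thus gave values from 0.25 to 0.38.

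The channel itself is made of Sec61a1, the pore, and the small subunits Sec61b and Sec61g. Sec61b was at 479, 487 and 459.9 CPM in the controls and at 655, 745 and 497 CPM with IGF-1. IGF-1 replicate 3 lay next to the controls and the other 2 far above them, with a log2 fold change of 0.41 (SE 0.15, adjusted p = 0.295). Sec61g read 311, 369 and 318 CPM in the controls and 466, 546 and 290.1 CPM with IGF-1. Its IGF-1 replicate 3 was the lowest of all 6 libraries, and its value of 0.39 (SE 0.20) was 0.61 without that library and 0.19 without IGF-1 replicate 2. The pore gene Sec61a1 stood at 183, 73.6 and 105 CPM in the controls and at 99.4, 129 and 136 CPM with IGF-1. Its controls differed among themselves more than the groups did (0.01, SE 0.28). The sign was negative without each of the libraries other than control replicate 1 and IGF-1 replicate 1, and the value was 0.45 without control replicate 1.

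ERAD genes had a median of 0.08, which was 0.14 when control replicate 1 was left out and 0.12 when IGF-1 replicate 3 was. Selenos, a selenoprotein that brings the extracting ATPase p97 to the ER membrane, read 301, 293 and 345 CPM in the controls and 381, 409 and 353 CPM with IGF-1, and the lowest IGF-1 library exceeded the highest control by a small margin (0.28, SE 0.12, adjusted p = 0.385). Herpud1, a scaffold of the ubiquitin ligase complex and a target of both ATF6 and ATF4, was at 139.6, 130.2 and 137 CPM and at 157, 150.5 and 162 CPM. These groups were separate too (0.21, SE 0.11, adjusted p = 0.514). Derl2, a membrane component of the export channel, stood at 153, 142 and 157 CPM and at 170.2, 171 and 163 CPM (0.15, SE 0.11, adjusted p = 0.659), again with no overlap.

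The remaining ERAD genes overlapped between groups. Syvn1 (HRD1), the central ubiquitin ligase, had the lowest log2 fold change of the 34. Its controls read 24.1, 26.6 and 36.8 CPM and its IGF-1 libraries 28.8, 23.5 and 25.6 CPM (-0.17, SE 0.20, adjusted p = 0.811). Without control replicate 3, the highest library, the value was 0.03. Sel1l, the partner that stabilises HRD1, gave 0.03 (SE 0.14), Edem1, which recognises trimmed mannose on misfolded glycoproteins, 0.03 (SE 0.12) and Derl1 0.08 (SE 0.12).

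**Figure D3:**
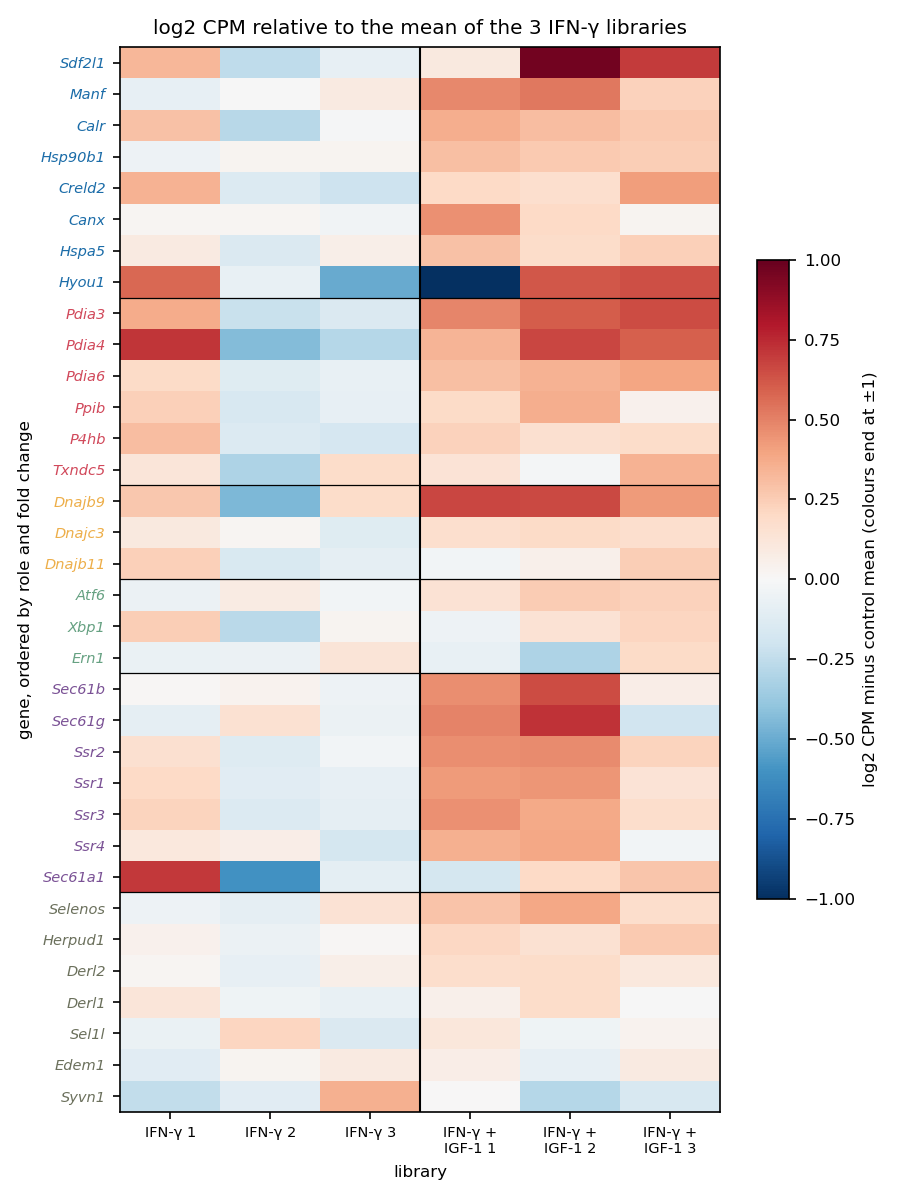
Log2 CPM of each gene in each library minus its mean over the 3 control libraries, with rows grouped by role (names coloured as in the plot of fold changes) and red for higher values. Control replicate 1 is redder than controls 2 and 3 in the isomerase rows other than Txndc5, and IGF-1 replicate 3 is the lowest of its group in 6 of the 7 translocation rows, Sec61a1 being the exception.

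The libraries of a group were not alike for these genes. Control replicate 1 was the highest control in 22 of the 34 genes and control replicate 2 the lowest in 18. The median deviation from the control mean, on the log2 CPM scale, was 0.12, -0.11 and -0.05 over the 34 genes in control replicates 1, 2 and 3, and 0.22, 0.26 and 0.22 in IGF-1 replicates 1, 2 and 3. Over all genes tested these medians lay between 0.00 and 0.02 in size. For the isomerases alone, control replicate 1 stood at 0.27, as high as IGF-1 replicate 1 at 0.27. For the translocation genes the IGF-1 replicates stood at 0.46, 0.44 and 0.14, and in 6 of the 7 genes IGF-1 replicate 3 was the lowest of its group.

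Levels can be compared between genes only per length. Dividing CPM by the merged exon length of GENCODE M21 gave, in the controls, 374 ± 10.8 CPM per kb for Sec61b at the top and 0.93 ± 0.36 for Hyou1 at the bottom (SD, n = 3). Below Sec61b came Selenos (212 ± 19.1), Pdia3 (191 ± 45.2), Xbp1 (173.5 ± 30.4), Ssr2 (166 ± 17.0), Hspa5 (164 ± 14.1) and Canx (158 ± 3.51 CPM per kb). From Selenos to Canx, neighbours in this order differed by less than the larger of their 2 SDs. The sensors and the ligase complex were at the low end, with Atf6 at 10.4 ± 0.55, Sel1l at 8.61 ± 1.17, Ern1 at 7.78 ± 0.61 and Syvn1 at 6.01 ± 1.39 CPM per kb. These lengths come from another annotation than the submitters' counts and include every annotated exon, so the order is approximate.

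The 8 members with an ERSE match in the promoter had a median log2 fold change of 0.24, and the other 20 members with a promoter window had 0.23. Of the 8 genes with an ERSE match, Hspa5, Hsp90b1, Canx, Pdia6 and Dnajc3 had separate groups, Calr and Creld2 overlapped, and Syvn1 was the lowest member. Separate groups with IGF-1 higher were seen in 41.2% of the 34 members and in 8.81% of all genes. The difference between members with and without an ERSE match was not tested.

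Other genes of the pathway, from lists drawn up by role, were also mostly positive: 119 of 121 listed symbols were in the table, 115 were tested, and 0 were called higher or lower by edgeR, edgeR with the replicate block or limma-voom. At an unadjusted p under 0.05, 18 were higher and 0 lower, where 5.58% and 6.24% of all genes were. Of the 115 values 79 were positive and 36 negative, against 48.7% positive over all genes, and the median was 0.14. DESeq2 called 6 higher, both without the block (1.84% of all genes) and with it (1.12%), namely Ero1a, Spcs2, Spcs3, Ostc, Stt3a and Dad1. In signal recognition and translocation 18 of 19 tested genes were positive (median 0.20). The signal peptidase subunit Spcs2 read 836, 777 and 769.9 CPM in the controls and 1123, 1159.6 and 1007 CPM with IGF-1, with no overlap (0.47, SE 0.11, adjusted p = 0.109). Its partner Spcs3 stood at 271, 192 and 183 CPM against 312, 328.5 and 332 CPM (0.59, SE 0.16, adjusted p = 0.161), and it passed the test without control replicate 1 (adjusted p = 0.0327). Bcap29, an ER membrane protein, gave 0.40 (SE 0.13).

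The oligosaccharyltransferase adds N-linked sugars as chains enter the lumen, and the list that holds it had 14 of 19 positive values (median 0.18). Its catalytic subunit Stt3a was at 279, 224 and 240.5 CPM in the controls and at 354, 348 and 347 CPM with IGF-1, well apart (0.50, SE 0.12, adjusted p = 0.126). Ostc read 237, 226 and 199 CPM against 337, 335 and 288 CPM (0.54, SE 0.12, adjusted p = 0.109), and Dad1 gave 0.48 (SE 0.14, adjusted p = 0.189). Genes of ER exit and retrieval were positive in 14 of 16 (median 0.19), led by the coat protein Sec13 (0.36, SE 0.13), the cargo receptor Surf4 (0.39, SE 0.17, and 0.24 without control replicate 2) and Tmed2 (0.29, SE 0.13).

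Lists with medians nearer to 0 were the PERK and ATF4 arm (0.05 over 14 genes, 8 of them positive, but 0.19 without IGF-1 replicate 3), other UPR sensors and regulators (0.04 over 8), oxidative folding (0.08 over 13) and the further ERAD genes (-0.00 over 21, 9 of them positive). Eif2ak3, which encodes PERK, read 18.0, 21.9 and 17.4 CPM in the controls and 25.1, 24.1 and 30.8 CPM with IGF-1. These groups did not overlap (0.48, SE 0.19, adjusted p = 0.334). Dnajc10, an ER reductase held in the same list, gave 0.46 (SE 0.16) and the ATF4 target Asns 0.76 (SE 0.34), which was 0.48 without control replicate 1 and 1.23 without control replicate 2. Atf4 itself gave -0.00 (SE 0.12) and Ddit3, the factor CHOP of the late stress response, 0.22 (SE 0.15). None of the 14 genes of this list passed the edgeR test. Of the 14, 3 were higher and 0 lower at an unadjusted p under 0.05, where 5.58% and 6.24% of all genes were. The 3 were Eif2ak3, Asns and Dnajc10, the last of them the ER reductase. Ero1a, the oxidase that recharges disulfide isomerases, was at 66.4, 67.1 and 51.4 CPM in the controls and at 94.1, 94.4 and 91.4 CPM with IGF-1, without overlap (0.60, SE 0.14, adjusted p = 0.108). It passed when only genes with at least 10 CPM in 3 libraries were tested (adjusted p = 0.0480). Its relative Ero1b gave -0.41 (SE 0.23) and Erp44, which retains Ero1 in the ER, 0.31 (SE 0.12).

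Further members of these lists had small differences: Creb3 (0.30, SE 0.14), Creb3l2 (0.19, SE 0.17), the ATF6-cleaving protease Mbtps1 (-0.25, SE 0.16), the p97 cofactor Ufd1 (0.36, SE 0.13), Os9 (-0.27, SE 0.12) and Ube2j1 (0.21, SE 0.13). Of 7 further proline isomerases of the ER, 5 were tested. Those were scarce, with Fkbp7 at 3.21 ± 0.99 and 4.53 ± 2.48 CPM, Fkbp11 at 1.24 ± 1.35 and 0.63 ± 0.52 CPM and Ppic at a mean of 0.37 and 1.16 CPM.

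**Figure D4:**
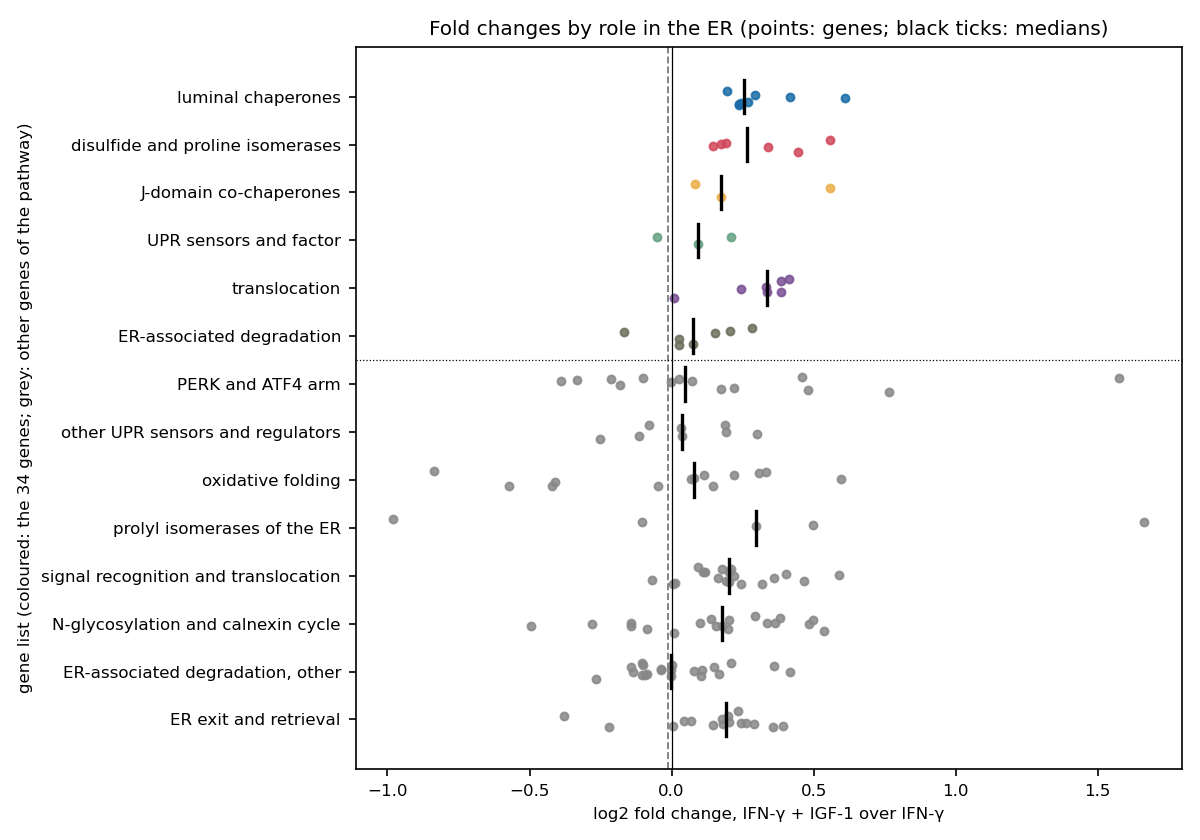
Log2 fold changes of the 34 genes by role (coloured) and of the other pathway genes by list (grey), 1 point per tested gene, with the median of each list as a black tick and the median of all genes tested as a dashed line. The median is 0.34 for translocation and lies near 0 for both ERAD lists (0.08 and -0.00).

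The libraries held 32573713 to 39206449 counts each. ILC3 markers were present in each, with Il7r at 365 to 478 CPM and Id2 at 1866 to 2719 CPM. Of the T cell list, Cd3e did not exceed 1.21 CPM, but Cd3d reached 6.36, Cd3g 15.6, Cd4 35.3 and Lat 110 CPM. Control replicate 3 held transcripts of plasma cells, which are rich in ER chaperones: 46944 counts of Igha and 18629 of Jchain, against at most 192 and 7 in any other library, with 59 of Mzb1, 64 of Tnfrsf17 and 616 of Iglc2. The summed plasma and B cell list was 1945 CPM there, 61.0 and 77.2 CPM in the other controls and 50.6 to 60.5 CPM with IGF-1. Without that library the median of the 34 genes was 0.22 and 31 were positive. In bulk RNA, fewer cells of a type and less RNA per cell cannot be told apart. Secretory epithelium was near 0: all 10 goblet and Paneth genes summed to 0.24 to 0.86 CPM in the controls and 1.58 to 2.00 CPM with IGF-1, 7 of the 10 had any count, and Agr2 and Clca1 had 0. The other epithelial list summed to 35.2 to 47.5 CPM in the controls and 14.3 to 22.0 CPM with IGF-1, nearly all of it Epcam. Epcam was lower with IGF-1, without overlap (-1.135, SE 0.20, adjusted p = 0.0442 by edgeR). All 9 genes of that list had some count, but Krt20 had only 1, in IGF-1 replicate 1. The list for ILC1 and NK cells, with 7 of 9 genes above 0, summed to 81.6 to 101.9 CPM in the controls and 124.9 to 153.8 CPM with IGF-1. The difference between the groups in these sums was mostly that of Ncr1, a gene also in the ILC3 list. Ncr1 stood at 27.4 to 29.5 and 66.9 to 79.1 CPM after TMM (1.34, SE 0.14, adjusted p = 0.00903 by edgeR). Of the 6 tested genes of the ILC1 and NK cell list, 4 were positive and 2 negative. Prf1 gave 1.415 (SE 0.42, adjusted p = 0.204 by edgeR), at a mean of 2.02 and 5.38 CPM without overlap. Klrb1c gave -0.32 (SE 0.17). The T cell list summed to 769.1 to 939.8 and 719.4 to 883.4 CPM, most of it Trbc2. What these lists contribute to the ER genes was not tested.

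Measures of RNA quality also differed between libraries and groups. The 9 mitochondrial mRNAs in the table summed to 15530 to 19180 CPM in the controls and 19440 to 22190 CPM with IGF-1, and nuclear long noncoding RNAs to 1543 to 2939 CPM and 1106 to 2260 CPM. Control replicate 1, the control with the highest ER gene levels, had the lowest noncoding sum of its group. Their part in the differences of the 34 genes was not tested. By GENCODE M21, 12 members share exon bases with another gene, most of all Ppib (25.0%, with Snx22) and Ssr2 (12.8%, with a pseudogene). Their counts may include reads of the neighbour or lack reads from the shared bases, since the counting settings are not given.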

How the data were processed

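The authors deposited raw counts per gene symbol for 6 libraries. Per the labels' protocols, cDNA came from the SMART-Seq HT kit, which does not mark strand. The submitters' processing notes name featureCounts 1.5.3, HISAT2 2.2.1, fastp 0.23.2, SAMtools 1.15.1 and build GRCm39, without settings or an annotation release. Libraries were grouped by title, 3 per group.

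The main test was edgeR's quasi-likelihood test (glmQLFit, glmQLFTest; edgeR 4.0.16, R 4.3.3) with TMM scaling and group as the only term. It ran on 13483 genes that passed filterByExpr at a minimum count of 10 and a minimum total of 15; the genes left out held 0.0806% of all counts. The SE is the log2 fold change divided by the square root of F. DESeq2 1.42.0 and limma 3.58.1 (voom) were alternatives. For 1 gene, the smallest p that an exact two-sided permutation test of 3 libraries against 3 can give is 0.1. Every pair of libraries differed by more than sampling noise (chi-square per degree of freedom from 38.7 to 133), so none was a duplicate.

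The 34 genes and all lists were chosen with earlier results of these data known. All 34 are reported. Values in every library were given for those with an unadjusted p under 0.05 or groups that do not overlap and for the 2 highest and 2 lowest fold changes, and for some others chosen after their values were seen. From each further list, the 3 genes with the smallest p were named. Atf4 and Ddit3 were named after their values were seen. Promoter sequences are from RefSeq (GRCm38.p6). No coordinates were joined to the counts.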

Additional observations from a re-analysis of the deposited data

How the results depend on the processing

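The count of members called was 0 in each direction under edgeR's main settings and with RLE, upper quartile or library size scaling, limma-voom, the stricter filter of 10 CPM in 3 libraries and adjusted p thresholds of 0.1 and 0.01; it was 2 higher with DESeq2, 1 with DESeq2 and the replicate block, 2 with no filter on low counts (Pdia3 and Sdf2l1), and 0 to 2 when single libraries were left out. Further pathway genes called higher numbered 6 with DESeq2 with or without the replicate block, 5 with no filter, 2 with the stricter filter and 0 to 1 when single libraries were left out. The median of the members ran from 0.21 to 0.25 over the scalings, tools and filters and from 0.18 to 0.31 when single libraries were left out. Over all genes, 31 were higher and 36 lower in the main fit. These counts were 200 and 256 with DESeq2, 151 and 217 with DESeq2 and the replicate block, 171 and 258 with no filter, 63 and 115 with the stricter filter, 57 and 87 at a threshold of 0.1, 1 and 1 at 0.01, and 60 lower with limma-voom. They ranged from 0 to 24 and from 0 to 31 when single libraries were left out. Genes tested numbered 13483 in the main fit and 13991 to 14097 with single libraries left out. With no filter, all 33157 rows were tested except the 9897 that were 0 in every library. The cause of these changes was not tested. 27 of the 34 members kept their sign in all 15 alternatives. The sign changed for Sec61a1 (-0.010 with library size scaling, -0.00011 with the stricter filter, and -0.25 to 0.45 with single libraries left out), Edem1 (-0.0054 with library size scaling, -0.028 to 0.075), Sel1l (-0.0042 with library size scaling, -0.044 to 0.14), Hyou1 (-0.042 to 0.56), Ern1 (-0.19 to 0.063), Xbp1 (-0.032 to 0.22) and Syvn1 (-0.29 to 0.034), and among scarce pathway genes for Fkbp7 (-0.050 to 0.77), Ppic (-0.21 to 6.10) and Fkbp11 (0.021 with limma-voom, -1.56 to 0.27).

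With the replicate number as a block, edgeR called 3 genes higher and 5 lower, and 0 members. Same-numbered libraries correlated at -0.24, -0.11 and 0.19 in their deviations from the group means, and only those numbered 3 correlated best with their own number, so the numbers were not taken to pair the samples. Hyou1 and the further proline isomerases of the ER had too few counts for the stricter filter and have no value there. The SE of the members ran from 0.10 (Hsp90b1) to 0.45 (Hyou1), which limits the differences that 3 libraries per group can show.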

Other observations

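Chaperones of the cytosol and mitochondria, which fold proteins outside the ER, gave a median log2 fold change of 0.02 over 9 genes, 5 of them positive. In 3 of the 9 (Hspd1, Hspa8 and Dnaja1) all IGF-1 libraries stood above all controls, and in 0 all stood below. The shares over all genes were 8.81% and 9.17%. Hspd1, the mitochondrial chaperonin, read 109, 114 and 108 CPM in the controls and 154, 158 and 133 CPM with IGF-1, and its groups did not overlap (0.43, SE 0.12, adjusted p = 0.175). Hspa8, the constitutive cytosolic Hsp70, stood at 2424, 2485 and 2210.3 CPM and at 2506, 3145 and 2722 CPM (0.23, SE 0.11, adjusted p = 0.454). The heat-inducible Hspa1b did not follow the groups: it was at 18.0, 18.8 and 67.6 CPM in the controls and at 19.2, 19.7 and 45.3 CPM with IGF-1, highest in replicate 3 of both groups. Hspa1a was also highest there, at 29.1 and 13.5 CPM. Of the 34 ER genes, control replicate 3 was the highest control in 8 and IGF-1 replicate 3 the highest of its group in 11.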
